A study of Mus musculus with 6 samples.

Results

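Antigen presentation displays peptides to T cells on molecules of the major histocompatibility complex. Class I molecules, made of a heavy chain and beta-2 microglobulin, carry peptides that the TAP transporter moves into the endoplasmic reticulum, and they are found on nearly all nucleated cells. Class II molecules, made of an alpha and a beta chain, assemble with the invariant chain and load peptides in endosomes. They are typical of professional antigen-presenting cells and are also made by thymic epithelial cells, which present self peptides to developing T cells.

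The genes described here are 10 of these, of 9088 genes in the deposited count table, chosen by symbol. The 6 class I genes are H2-K1 and H2-D1, which encode the classical heavy chains, B2m, which encodes beta-2 microglobulin, Tap1 and Tap2, which encode the subunits of the peptide transporter, and Tapbp, which encodes tapasin, the chaperone that holds empty class I molecules at the transporter. The 4 class II genes are H2-Aa and H2-Ab1, which encode the alpha and beta chains of I-A, H2-Eb1, which encodes the beta chain of I-E, and Cd74, which encodes the invariant chain.

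Tuft cells, rare chemosensory epithelial cells, of young male mice, wild type throughout, were sorted from the thymus and kept ex vivo as aggregates, for 12 h and then for 24 h in fresh medium. In 3 libraries the cells then received recombinant interleukin 13 (rIL-13), a type 2 cytokine, at 20 ng/mL for 24 h, and in the other 3 the PBS vehicle for the same time. Bulk polyadenylated RNA was measured by MARS-seq, in which each captured transcript end carries a unique molecular identifier (UMI) that is counted once. The labels name neither a strain nor whether replicates are separate cultures or animals, or how many animals were pooled, so p-values speak of the spread among these 6 libraries alone, and this spread may be technical.

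The listed genes held 248028 to 489919 UMIs per library, fewer in each rIL-13 library (248028 to 295614) than in each vehicle library. In a chi-square comparison of counts over genes, where 1 per degree of freedom is counting error and values rise with depth, the lowest values were those of rIL-13 replicates 2 and 3 (2.36) and then vehicle replicate 3 with rIL-13 replicate 1 (2.49), and the other pairs ran from 2.89 to 4.82. Levels are given as UMIs and as counts scaled to library size by TMM factors (CPM). As each UMI marks the 3′ end of a molecule, no correction for transcript length was made. Levels of different genes are compared on this scale. Differences between genes in the capture of ends or the assignment of reads were not tested and may enter these comparisons. Of the 25 tuft cell markers fixed for this comparison, 23 are listed, and their summed level was 6560 to 7917 CPM with vehicle and 7080 to 12646 CPM with rIL-13. In bulk RNA, fewer cells of a type and less RNA per cell cannot be told apart.

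Most of these genes lie in the major histocompatibility complex on mouse chromosome 17. In mm10 coordinates, with the gene models of GENCODE M21, Tapbp lies at chr17:33915899-33929292 and H2-K1 at chr17:33996017-34000347. Tap1 (chr17:34187553-34197225) and Tap2 (chr17:34203527-34216321) follow, and H2-Ab1 (chr17:34257689-34269419), H2-Aa (chr17:34282744-34287823) and H2-Eb1 (chr17:34305867-34316674) are next to each other. H2-D1 lies apart at chr17:35262730-35267499. B2m lies on chromosome 2 at 122147686 to 122153083. H2-K1 and H2-Aa are on the minus strand and the others on the plus strand, and each gene is annotated as coding for a protein.

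The promoters of both classes carry short elements known to bind their regulators, and 5 are shown because they cover the heavy chains, their light chain and a chain of each class II molecule. Each sequence is from RefSeq on GRCm38.p6, runs from 250 bases before to 50 after the RefSeq transcription start on the gene's own strand, and has matches to 7 searched motifs in capitals. The H2-D1 window lies wholly within the GENCODE span of that gene given above, so its RefSeq and GENCODE starts differ. H2-Aa is from chr17:34287774-34288073 (minus), H2-Eb1 from chr17:34305617-34305916 (plus), H2-K1 from chr17:34000298-34000597 (minus), H2-D1 from chr17:35262844-35263143 (plus) and B2m from chr2:122147437-122147736 (plus).
H2-Aa: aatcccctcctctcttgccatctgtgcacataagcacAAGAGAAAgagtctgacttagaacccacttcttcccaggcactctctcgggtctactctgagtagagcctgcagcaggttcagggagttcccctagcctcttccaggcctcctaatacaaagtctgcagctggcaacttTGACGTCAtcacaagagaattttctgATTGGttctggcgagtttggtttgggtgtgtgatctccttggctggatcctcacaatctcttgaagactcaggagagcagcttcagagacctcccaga
H2-Eb1: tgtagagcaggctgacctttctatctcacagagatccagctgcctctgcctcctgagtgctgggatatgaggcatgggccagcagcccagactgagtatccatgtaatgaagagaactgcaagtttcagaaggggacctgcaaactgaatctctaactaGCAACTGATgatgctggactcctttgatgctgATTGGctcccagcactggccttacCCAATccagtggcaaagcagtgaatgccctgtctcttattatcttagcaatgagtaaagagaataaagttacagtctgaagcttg
H2-K1: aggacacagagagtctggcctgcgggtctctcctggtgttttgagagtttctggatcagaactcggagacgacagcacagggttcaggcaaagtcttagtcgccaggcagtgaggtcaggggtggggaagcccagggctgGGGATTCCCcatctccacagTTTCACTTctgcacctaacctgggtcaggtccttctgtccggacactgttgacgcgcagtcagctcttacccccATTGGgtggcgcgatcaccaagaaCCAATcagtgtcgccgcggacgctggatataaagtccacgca
H2-D1: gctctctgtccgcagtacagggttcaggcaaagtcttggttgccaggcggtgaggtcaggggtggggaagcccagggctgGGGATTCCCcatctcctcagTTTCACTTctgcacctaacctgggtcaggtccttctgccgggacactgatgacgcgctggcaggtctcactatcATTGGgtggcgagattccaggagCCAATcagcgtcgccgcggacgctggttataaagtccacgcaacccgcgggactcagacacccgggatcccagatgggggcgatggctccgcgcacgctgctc
B2m: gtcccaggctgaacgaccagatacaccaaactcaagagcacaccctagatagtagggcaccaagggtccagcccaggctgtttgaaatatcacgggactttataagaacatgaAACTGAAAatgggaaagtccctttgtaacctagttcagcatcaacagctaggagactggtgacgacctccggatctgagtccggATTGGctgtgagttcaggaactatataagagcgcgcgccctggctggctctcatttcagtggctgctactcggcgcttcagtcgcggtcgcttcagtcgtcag

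RefSeq windows were found for 7 of the 10 genes, with Tap1 and Tapbp besides those shown, and were searched on both strands. The kappaB sequence GGGATTCCC was in H2-K1 and H2-D1 and in 0.353% of all 32851 windows of that length. In both heavy chain genes it is followed by TTTCACTT, a match to TTTCNNTT, a core of sites for interferon regulatory factors, which was in 23.9% of all windows and also in B2m and H2-Aa. H2-Eb1 held GCAACTGAT, the core of the class II X box bound by RFX (0.122% of all windows), and H2-Aa held TGACGTCA, the form of the neighbouring X2 box bound by CREB (1.79%). The CCAAT sequence, which is the Y box bound by NF-Y when it stands beside the X box, was in all 7 windows and in 37.4% of all. The letters TTC and GAA with 4 bases between them, the form preferred by the STAT6 factor that IL-13 activates, were in none of the 7 windows and in 6.95% of all. With 3 bases between them, the form of other STAT factors, they were in none and in 8.30%. These forms can overlap the interferon motif, and a match or its absence says nothing of a factor's binding.

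Transcripts of the classical heavy chains and B2m were plentiful in these cultures. Those of the class II genes were fewer, but above the transporter genes in mean level over the 6 libraries. By mean level over the 6 libraries, H2-D1 (956 CPM) and H2-K1 (662 CPM) ranked 144th and 222nd of 9088 listed genes, and B2m (379.8 CPM) 463rd. Tapbp followed at 136 CPM and then the class II genes H2-Ab1 (80.0 CPM), H2-Eb1 (66.2 CPM), H2-Aa (59.9 CPM) and Cd74 (51.2 CPM). These class II genes ranked 2334th, 2755th, 3010th and 3386th of the listed genes. The transporter genes were lowest, Tap2 at 43.0 CPM and Tap1 at 15.6 CPM, ranked 3885th and 6902nd. The order of Tap2 and Cd74 differed between the group means, 32.6 and 54.9 CPM with vehicle against 53.3 and 47.5 CPM with rIL-13. In each of the 6 libraries H2-D1 lay above H2-K1, H2-K1 above B2m, B2m above Tapbp, Tapbp above H2-Ab1 and Tap2 above Tap1. Tapbp was not above every class II gene in each library, as H2-Eb1 (110.0 CPM) exceeded it (93.7 CPM) in vehicle replicate 3. The class II genes could not be ordered. H2-Ab1 lay above H2-Eb1 in 4 of 6 libraries, H2-Eb1 above H2-Aa in 3, H2-Aa above Cd74 in 4 and Cd74 above Tap2 in 4.

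None of the 10 genes passed the test for a change with rIL-13. Of them, 9 passed the filter on low counts and Tap1 did not. Over all 5135 genes tested, 0.0584% passed edgeR's quasi-likelihood test at a Benjamini-Hochberg adjusted p under 0.05, and 0.077% in the fit without a filter that gave Tap1, so a count of 0 in a group of this size does not set it apart from other genes. At an unadjusted p under 0.05 the number was again 0, against 5.47% of all tested genes and 5.38% in the fit without a filter, and DESeq2 and limma voom also called 0 of the 10. The vehicle and rIL-13 libraries overlapped for each of the 10 genes. They did not overlap for 11.7% of the tested and 11.1% of the listed genes. In a group of 10, counts of 0 beside shares of this size do not set the genes apart either.

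**Figure D1:**
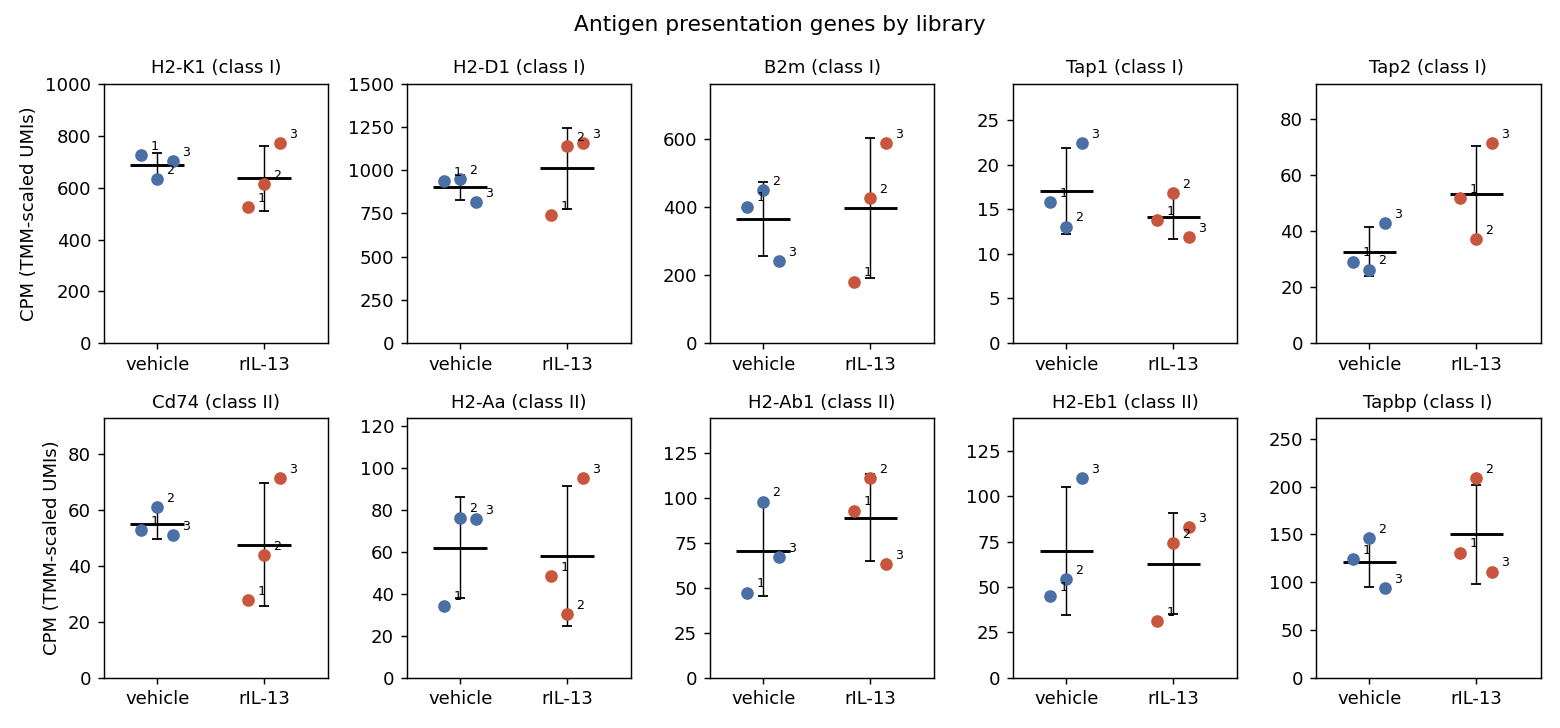
Level of each gene in each library, in CPM (UMIs scaled to library size by TMM), with its own vertical axis from 0. Points are libraries labelled by replicate number, the line is the group mean and the bar the SD (n = 3), and the groups overlap in each panel.

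The classical heavy chains had the lowest coefficients of variation of the 10 genes among vehicle libraries. H2-K1 stood at 727, 634 and 703 CPM there (replicates 1, 2 and 3, the order used throughout) against 524, 613 and 772 CPM with rIL-13. The treated libraries thus lay on both sides of the vehicle range. The log2 fold change was -0.11 ± 0.22 (SE, n = 3 per group; edgeR adjusted p = 0.967), with a 95% interval from 0.676 to 1.27-fold, and was -0.0056 without rIL-13 replicate 1. H2-D1 had 938, 949 and 817 CPM with vehicle and 741, 1139 and 1155 CPM with rIL-13. Here rIL-13 replicate 1 lay below the vehicle libraries and the others above them, and the log2 fold change was 0.17 ± 0.21 (edgeR adjusted p = 0.941; 0.823 to 1.53-fold). The coefficient of variation among vehicle libraries was 7.04% for H2-K1 and 8.14% for H2-D1, and among rIL-13 libraries 19.7% and 23.2%. H2-D1 exceeded H2-K1 by a ratio of 1.32 ± 0.170 with vehicle against 1.59 ± 0.235 with rIL-13 (SD, n = 3 each), and these ratios overlapped, from 1.16 to 1.50 and from 1.41 to 1.86. Heavy chain genes are related in sequence, and exact sharing of 50-base stretches at their 3′ ends was looked for. Stretches that differ by a base were not counted as shared. Of the 451 stretches of 50 bases in the last 500 bases of the main H2-K1 transcript, 0.443% also occur in another gene's transcript, that of H2-D1, and 9.53% of those of H2-D1 occur in transcripts of 80 other genes. How reads with several matches were counted is not given in the sources used here.

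B2m, which encodes the light chain shared by all class I molecules, varied most beyond counting error among libraries of the same group. It had 400.3, 449 and 240.3 CPM with vehicle, from 152, 206 and 118 UMIs, and 179, 425 and 586 CPM with rIL-13, from 52, 126 and 148 UMIs. The low libraries were vehicle replicate 3 and rIL-13 replicate 1, and the spread within rIL-13 was 3.27-fold from lowest to highest. The same 2 libraries had the highest summed level of fibroblast markers, 2422 and 2520 CPM. Vehicle replicate 1 was close to them at 2323 CPM, though its B2m level was 400.3 CPM, and the others had 1088 to 1740 CPM. The part of fibroblasts in the B2m level was not tested. The mean squared deviation of its UMIs from the group level was 15.7 times that of counting alone with vehicle and 29.5 times with rIL-13, against 1.48 and 6.68 times for H2-K1. Its coefficient of variation, 30.0% and 51.6%, was below that of H2-Aa, 38.7% and 57.7%. Its log2 fold change of 0.12 ± 0.40 (edgeR adjusted p = 0.988) leaves a 95% interval from 0.580 to 2.05-fold, and it turned to -0.10 without vehicle replicate 3 and to -0.26 without rIL-13 replicate 3, and was 0.46 without rIL-13 replicate 1. The ratio of summed H2-K1 and H2-D1 to B2m was 4.16, 3.53 and 6.32 with vehicle against 7.06, 4.13 and 3.29 with rIL-13. It was highest in the same 2 libraries in which its denominator, B2m, was low, so this is not a separate observation. B2m lies within the span of Patl2 on the opposite strand, and use of strand in counting is not given in the sources used here. It shares no 50-base stretch of its 3′ end with another gene.

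Of the peptide loading genes, Tap1 and Tap2 had few UMIs, 3 to 21 per library, and Tapbp had 28 to 67. Tap2 gave 11, 12 and 21 UMIs with vehicle against 15, 11 and 18 with rIL-13, or 29.0, 26.1 and 42.8 CPM against 51.7, 37.1 and 71.2 CPM. Of the 10 genes it had the largest fitted change and the smallest p, at 0.68 ± 0.41 (edgeR unadjusted p = 0.115, adjusted p = 0.864; 0.882 to 2.92-fold), and rIL-13 replicate 2 lay within the vehicle range. Tap1, its partner in the transporter, pointed the other way with 6, 6 and 11 UMIs with vehicle against 4, 5 and 3 with rIL-13. At this depth its log2 fold change, -0.27 ± 0.63 in the fit without a filter (edgeR adjusted p = 0.990), has an interval from 0.338 to 2.03-fold, which overlaps that of Tap2, and it was -0.019 without vehicle replicate 3. Tapbp had 124, 146 and 93.7 CPM with vehicle and 131, 209 and 111 CPM in the treated group, a fitted log2 difference of 0.32 ± 0.29 (edgeR adjusted p = 0.926; 0.812 to 1.92-fold), which was 0.00075 without rIL-13 replicate 2, its highest library. Tapbp overlaps Zbtb22 on the same strand over 3422 bases, and Zbtb22 had 46 UMIs in all libraries together. Tap1 overlaps Psmb9 over 212 bases at their shared start, on opposite strands.

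The class II chains varied 2.07 to 2.46-fold from lowest to highest within vehicle libraries and were not all highest in the same library. H2-Ab1 had 18, 45 and 33 UMIs with vehicle against 27, 33 and 16 with rIL-13, or 47.4, 98.0 and 67.2 CPM against 93.1, 111 and 63.3 CPM. Its partner H2-Aa had 13, 35 and 37 UMIs with vehicle against 14, 9 and 24 with rIL-13, or 34.2, 76.2 and 75.4 CPM against 48.3, 30.3 and 95.0 CPM. The library with the most H2-Ab1 of the rIL-13 group, replicate 2, had the least H2-Aa, and the ratio of H2-Ab1 to H2-Aa ran from 0.667 to 3.67 there, against 0.892 to 1.38 with vehicle. The log2 fold changes were 0.33 ± 0.34 for H2-Ab1 (edgeR adjusted p = 0.932; 0.768 to 2.05-fold) and -0.14 ± 0.42 for H2-Aa (edgeR adjusted p = 0.985; 0.491 to 1.68-fold). H2-Aa turned to 0.028 without vehicle replicate 2 or vehicle replicate 3 and to 0.18 without rIL-13 replicate 2.

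H2-Eb1 had 17, 25 and 54 UMIs with vehicle against 9, 22 and 21 with rIL-13, or 44.8, 54.4 and 110.0 CPM against 31.0, 74.1 and 83.1 CPM. Vehicle replicate 3 held the highest level and rIL-13 replicate 1 the lowest. Its log2 fold change of -0.18 ± 0.41 (edgeR adjusted p = 0.976; 0.484 to 1.61-fold) turned to 0.33 without vehicle replicate 3 and to 0.13 without rIL-13 replicate 1. Cd74 was the steadiest class II gene with vehicle, at 20, 28 and 25 UMIs or 52.7, 61.0 and 50.9 CPM, a coefficient of variation of 9.78%. With rIL-13 its UMIs were 8, 13 and 18, or 27.6, 43.8 and 71.2 CPM, so that 2 libraries lay below and 1 above all vehicle libraries. Its log2 fold change of -0.22 ± 0.39 (edgeR adjusted p = 0.963; 0.485 to 1.51-fold) turned to 0.039 without rIL-13 replicate 1. Cd74 lies outside the complex, on chromosome 18 at 60803848 to 60812652. The ratio of Cd74 to the mean of the H2-Aa, H2-Ab1 and H2-Eb1 levels was 0.885 ± 0.331 (SD, n = 3) with vehicle against 0.658 ± 0.207 (n = 3) in the treated group, from 0.605 to 1.25 and from 0.480 to 0.885.

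**Figure D2:**
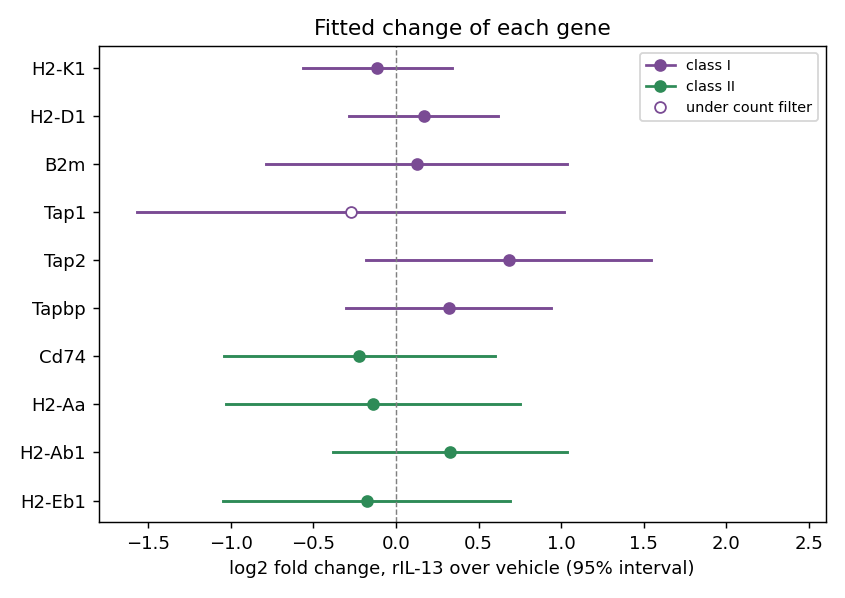
Log2 fold change of each gene with rIL-13 over vehicle, as fitted by edgeR, with its 95% interval as a line (n = 3 per group). Each interval contains 0, from Tap1 at -0.27 (open point, under the count filter) to Tap2 at 0.68.

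Class I and class II were then compared by their summed levels. The 6 class I genes summed to 2233, 2217 and 1919 CPM with vehicle against 1641, 2439 and 2707 CPM with rIL-13. The 4 class II genes summed to 179, 289.6 and 303 CPM with vehicle and to 199.9, 259 and 313 CPM with rIL-13. Class I transcripts thus outnumbered class II transcripts in each library, 6.32 to 12.5 times with vehicle and 8.21 to 9.40 times with rIL-13. Group means of the class II sum were 257 ± 68.2 CPM with vehicle and 257 ± 56.4 CPM with rIL-13, and those of the class I sum were 2123 ± 177 and 2262 ± 555 CPM (SD, n = 3 each).

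The log2 ratio of the class II to the class I sum was -3.64, -2.94 and -2.66 with vehicle against -3.04, -3.23 and -3.11 with rIL-13. All rIL-13 ratios lay inside the vehicle range, and their SD was 0.099 against 0.51 with vehicle. The ratio differed by -0.049 between the group means, less than that spread. In the vehicle group the library with the highest class I sum, replicate 1, had the lowest class II sum, and replicate 3 the reverse. Among rIL-13 libraries replicate 1 was lowest and replicate 3 highest in both sums. The rIL-13 minus vehicle difference in log2 of the sum was 0.063 for class I and 0.014 for class II, and single libraries turned both, so that it ran from -0.082 to 0.28 for class I and from -0.23 to 0.18 for class II with 1 library left out. As a description, the median log2 fold change was 0.15 over the 6 class I genes, 4 of them positive, and -0.16 over the 4 class II genes, 1 of them positive, beside a median of -0.00099 over all tested genes. These medians were not stable either, since that of class I turned to -0.050 without rIL-13 replicate 3, and that of class II to 0.16 without vehicle replicate 3 and to 0.086 without rIL-13 replicate 1.

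**Figure D3:**
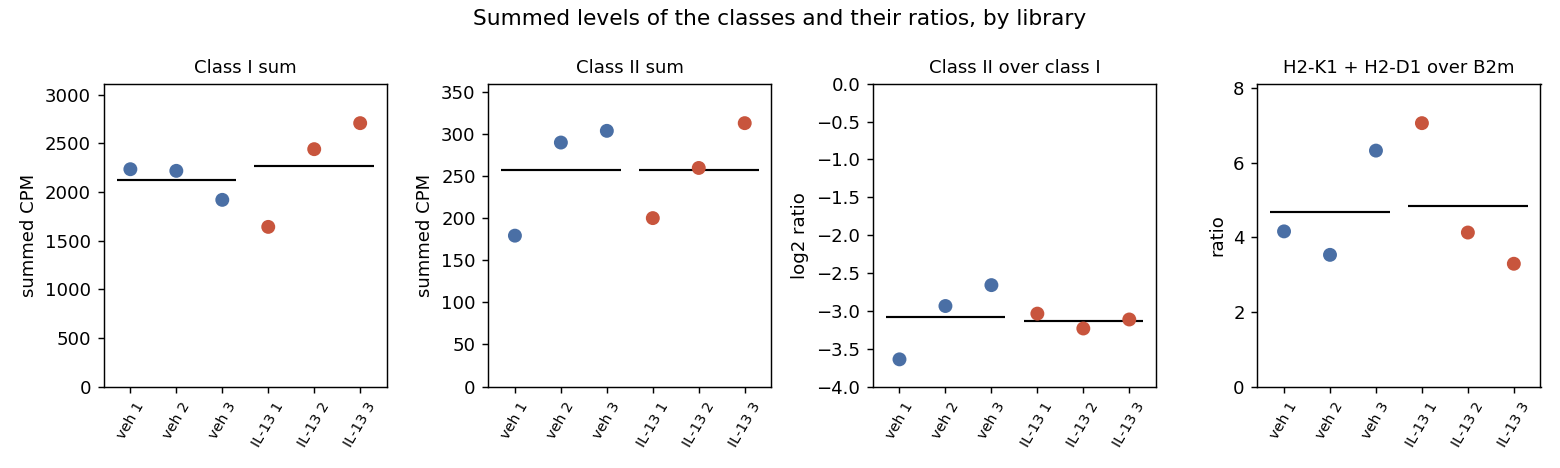
Summed CPM of the 6 class I genes and of the 4 class II genes, the log2 ratio of the class II to the class I sum, and the ratio of summed H2-K1 and H2-D1 to B2m, for each library. Points are vehicle (blue) and rIL-13 (red) libraries and lines are group means, and the rIL-13 libraries lie between -3.23 and -3.04 in the log2 ratio, inside the vehicle range of -3.64 to -2.66.

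Few markers of myeloid, dendritic and B cells, which can carry class II molecules, are among the listed genes. Of 20 myeloid and dendritic markers, 4 are listed, and the other 16 are not analysed here. The summed level of these 4 was 151 to 282 CPM with vehicle and 124 to 317 CPM with rIL-13. It overlapped the range of the class II sum, 179 to 303 CPM with vehicle and 199.9 to 313 CPM with rIL-13. Most of the myeloid and dendritic sum came from Csf1r and Laptm5. Csf1r, the receptor of macrophage colony-stimulating factor, had 61, 77 and 25 UMIs with vehicle against 5, 38 and 3 with rIL-13. Laptm5, a lysosomal protein gene of blood cells, had 28, 38 and 41 against 26, 47 and 28. These UMIs are not scaled, and each rIL-13 library had fewer UMIs in total than each vehicle library. Cd79b, a chain of the B cell receptor, was the single B cell marker of 10 listed, with 18 to 25 UMIs with vehicle and 9 to 18 with rIL-13. Scaled to library size, its level was 39.2 to 50.9 CPM with vehicle and 31.0 to 60.6 CPM with rIL-13. Of 15 thymocyte markers 2 are listed, Thy1 and Themis, at 7.90 to 144 CPM and 55.4 to 79.3 CPM together. Medullary thymic epithelial markers, 7 of 12 listed, summed to 389 to 449 CPM with vehicle and 396 to 641 CPM with rIL-13, and cortical ones, 3 of 8 listed, to 144 to 196 CPM and 93.1 to 212 CPM. Fibroblast markers, 10 of 12 listed, held 1740 to 2422 CPM and 1088 to 2520 CPM, and endothelial markers, 4 of 10 listed, 53.0 to 202 CPM and 62.0 to 103 CPM. The part of these cells in the class I and class II levels was not tested.

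Other genes of the class I pathway did not pass either. Of 21 further heavy chain and class I-like genes, 4 are listed and 1 was tested, H2-T23, which encodes the nonclassical Qa-1 molecule. It had 45, 52 and 52 UMIs with vehicle against 18, 27 and 19 with rIL-13, and was fitted at -0.56 ± 0.29 on the log2 scale (edgeR adjusted p = 0.860). H2-L, H2-Q6 and the Fc receptor gene Fcgrt had at most 19 UMIs in any library. Of 15 genes for loading and peptide supply, 12 are listed, 11 were tested and none passed, with a median log2 fold change of -0.032 over the 12. The folding enzyme Pdia3, a part of the peptide loading complex, was at -0.44 ± 0.24 (edgeR adjusted p = 0.860), and Sec61b, a subunit of the protein channel of the endoplasmic reticulum, at -0.24 ± 0.24 (edgeR adjusted p = 0.930). Psmb8 and Psmb9, which encode catalytic subunits of the immunoproteasome beside the Tap genes, were at -0.037 ± 0.34 and -0.027 ± 0.39. Psmb9 had 14, 26 and 22 UMIs with vehicle against 10, 14 and 14 with rIL-13.

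Class II loading and regulation was covered by 12 listed of 27 named genes, of which 6 were tested and none passed. Their median log2 fold change was -0.28 over the 12, 2 of them positive, and 6 of the 12 lay under the count filter. H2-DMa, which encodes a chain of the peptide exchange factor of class II, had 4, 5 and 8 UMIs with vehicle against 6, 8 and 7 with rIL-13 (0.95 ± 0.58 in the fit without a filter, edgeR adjusted p = 0.896). Its partner H2-DMb1 had 11, 11 and 17 UMIs and 5, 10 and 9, at -0.028 ± 0.47. The endosomal protease gene Ctss, whose product trims the invariant chain, had at most 6 UMIs in any library. Ifi30, a thiol reductase of antigen processing that interferon gamma induces, was at -0.37 ± 0.25 (edgeR adjusted p = 0.896) and Marchf8, a ubiquitin ligase gene of a family that removes class II from the surface, at 0.33 ± 0.41 (0.941). The regulators Ciita and Nlrc5 and the alpha chain gene H2-Ea are not analysed here.

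Costimulatory and checkpoint ligand genes had 3 of 15 listed and none above the count filter, and Cd80 is not analysed here. Interferons are the main inducers of both classes in many tissues. Of 35 genes of interferon signalling and its targets, 20 are listed, 11 were tested and none passed, with a median of 0.16 over the 20. Besides Socs1, a feedback inhibitor of cytokine receptors with a fitted log2 rise of 1.93 ± 0.46 that did not pass (edgeR adjusted p = 0.256), the smallest p among the 11 tested was that of the tetherin gene Bst2, at -0.78 ± 0.31 (edgeR adjusted p = 0.802). Irf1, an activator of class I genes, had 11, 26 and 24 UMIs with vehicle against 4, 22 and 13 with rIL-13, at 0.037 ± 0.48 (edgeR adjusted p = 0.996), and was lowest in rIL-13 replicate 1. The receptor chain gene Ifngr1 had 5, 12 and 10 UMIs and 10, 4 and 4. Over these 5 lists no gene was called by edgeR, DESeq2 or limma voom. Of their 29 tested genes 3 had an unadjusted edgeR p under 0.05, and of the 22 under the count filter 2 did in the fit without a filter, as against 5.47% and 5.38% of all genes in these fits.

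**Figure D4:**
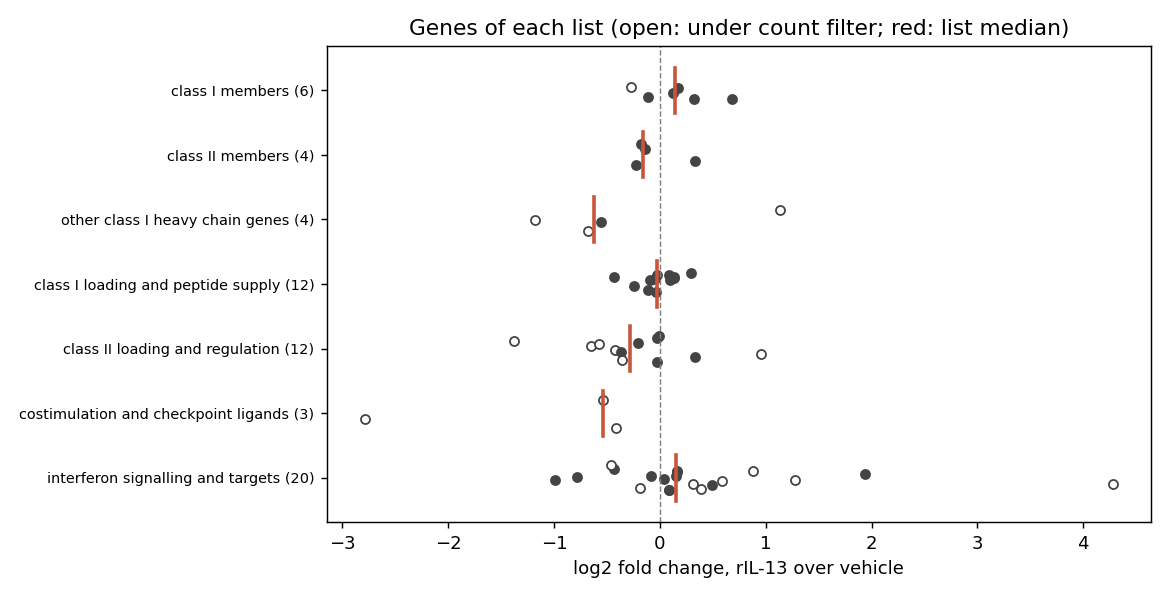
Log2 fold change with rIL-13 over vehicle of each listed gene of the class I and class II genes and 5 further lists (number of genes in brackets), with open points for genes under the count filter, red lines for list medians and a dashed line for the median of all tested genes. The list medians run from -0.62 for the other heavy chain genes to 0.16 for the interferon list.

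The genes whose levels followed each sum most closely were found among 5126 tested genes with a mean of at least 20 CPM, by the root mean square difference in centred log2 CPM over the 6 libraries. For the class II sum these were Usp7 (0.067), Map1lc3b (0.075), Uqcrh (0.093), Ddx6 (0.10) and Nudt1 (0.11), beside a median of 0.48 over all genes compared. For the class I sum they were Cuta (0.041), Kcnh3 (0.045), Washc3 (0.064), Coprs (0.067) and Atp5c1 (0.068), beside a median of 0.43. None of the 10 is in the lists used here, and over 6 libraries this likeness is a description only. In the authors' deposited table, once each value is signed as rIL-13 over vehicle, log2 fold changes of the antigen presentation genes ran from -0.27 for Tap1 to 0.69 for Tap2, and each adjusted p there was 1.0.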

How the data were processed

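Bulk MARS-seq libraries of cultured thymic tuft cells, 3 with vehicle and 3 with rIL-13, were grouped and numbered by their titles. The submitters' processing notes name bcl2fastq, cutadapt, STAR 2.5.2b, HTSeq, DESeq2 and build mm10, with no roles or order. Raw UMI counts, named as such per the file headers, were used for all tests. The deposited normalized signal served to find the sign of the authors' fold changes, and the deposited regularized log2 values were not used. The authors' p-values and log2 changes stand as deposited. Every listed gene reaches 6 UMIs in at least 1 library, so library totals are sums over listed genes.

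The main test was the quasi-likelihood F test of edgeR 4.0.16 in R 4.3.3, robust, TMM factors, group as the single term, default filter by group (5135 genes, 93.8% of UMIs). Standard errors and 95% intervals are those implied by the F statistic and its degrees of freedom. Genes under the filter come from a fit of all genes with at least 1 UMI. No p-value was computed for sums, ratios or lists. The members, lists and tests were chosen with earlier results of these data known. Genes named are the 10 members, for each further list those past the threshold or else the 2 tested genes with the smallest p, 10 genes fixed by name (those listed are given), and 5 genes most like each class sum, with a pseudocount of 1 CPM. Other named genes were chosen after their values were seen. Scripts were tested on simulated data. Alternatives were DESeq2 1.42.0, limma voom 3.58.1, other scaling factors and filters, a replicate term and leaving out each library.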

Additional observations from a re-analysis of the deposited data

How the results depend on the processing

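None of the 10 genes passed the threshold under any of 14 alternatives, where the lowest adjusted p was 0.538, for H2-D1 and B2m without rIL-13 replicate 1. Of 140 refitted log2 fold changes 132 kept their sign. Those that turned were B2m without vehicle replicate 3 (-0.10) or rIL-13 replicate 3 (-0.26), Cd74 without rIL-13 replicate 1 (0.039), H2-Aa without vehicle replicate 2 (0.028), vehicle replicate 3 (0.028) or rIL-13 replicate 2 (0.18), and H2-Eb1 without vehicle replicate 3 (0.33) or rIL-13 replicate 1 (0.13). Their ranges with 1 library left out were -0.26 to 0.46, -0.61 to 0.039, -0.67 to 0.18 and -0.42 to 0.33. For the genes that kept their sign these ranges were -0.27 to -0.0056 for H2-K1, 0.062 to 0.33 for H2-D1, -0.44 to -0.019 for Tap1, 0.43 to 0.94 for Tap2, 0.00075 to 0.49 for Tapbp and 0.12 to 0.63 for H2-Ab1. With 1 library left out, the class I median ran from -0.050 to 0.37 and the class II median from -0.51 to 0.16, and the difference in the log2 class II to class I ratio from -0.33 to 0.16. That difference was 0.033 without B2m and Cd74. Over all genes, 2 passed higher and 1 lower. No filter gave 5 and 2, DESeq2 4 and 2, limma voom 0 and 0 and the replicate block 8 and 5. Leaving out a library gave 1 to 20 higher and 0 to 15 lower. Other scaling factors and a filter of 10 UMIs in 3 libraries kept these counts. Deviations from the group means correlated at -0.068, 0.073 and -0.22 between libraries that share a number. With 3 libraries per group these values cannot decide whether the numbers pair the libraries. Why these counts differ was not tested. The class II and transporter genes had 3 to 54 UMIs per library and 95% intervals that together span 0.338 to 2.92-fold. B2m, with 52 to 206 UMIs, had a single interval from 0.580 to 2.05-fold. The part of counting depth in the width of the intervals was not tested.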

Other observations

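Genes of the lists that were chosen after their values were seen are given here as values. Cxcl10, a chemokine gene induced by interferons, had 1, 1 and 0 UMIs with vehicle against 2, 2 and 25 with rIL-13, and the third treated library alone held most of its UMIs (edgeR adjusted p = 0.624 in the fit without a filter). Icam1, which encodes an adhesion molecule that supports contact with T cells, had 3, 16 and 6 UMIs with vehicle against 1, 0 and 1 with rIL-13 (edgeR adjusted p = 0.718 in the same fit). Stat2, a mediator of interferon signalling, had 2, 8 and 4 UMIs with vehicle against 4, 12 and 6 with rIL-13 (edgeR adjusted p = 0.896).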
